A study of Mus musculus with 2 samples.

Results

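Immunoglobulin-family cell adhesion molecules of the newborn mouse ovary were examined as 10 genes, Vcam1, Icam1, Icam2, Alcam, Mcam, Ncam1, Jam2, Jam3, F11r and Pecam1. Their probe sets were those whose single gene symbol in the array annotation is one of these names. That rule found 28 probe sets for 10 of 18193 named genes on the array, out of 34945 probe sets with a single symbol and 45101 in all. The study compared ovaries of mice at 2 days of age in 2 groups, each a single array hybridised with 1 pool of equal amounts of RNA from 8 mice. The control pool was Amhr2(+/+)-SmoM2, with both Amhr2 copies intact and no Cre, and the mutant pool was Amhr2(cre/+)-SmoM2, with Cre at 1 copy of Amhr2. Mice of both groups carried the SmoM2 allele, which encodes an always-active form of the hedgehog transducer Smoothened. How much of it either pool made was not measured. Amhr2 is the receptor gene of anti-Müllerian hormone, so Cre from its locus acts in somatic cells of the gonad, and the effects of Cre, of the changed Amhr2 copy and of SmoM2 cannot be told apart. The study's title names over-activation of hedgehog signalling in the ovary as its subject. A single array per group leaves no replicate error, so no p-value is given. Oocyte and pregranulosa markers were present in both pools, with 10 of 10 and 9 of 9 listed genes measured. On their brightest probe sets the lowest signal in either pool was 202, that of Lgr5 in mutant ovaries. The hedgehog target Hhip had a very dim signal of 1.1 in control ovaries and 3216 in mutant ovaries. Of 2 other targets, Gli1 was 103.2 in control ovaries and 264 in mutant ovaries, and Ptch1 was 5574 and 15949.

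These proteins stand in the cell membrane with extracellular immunoglobulin domains that bind a like molecule or an integrin on another cell. On endothelium VCAM1, ICAM1 and ICAM2 hold leukocytes through integrins, whereas PECAM1 and the junctional adhesion molecules (JAMs, encoded by F11r, Jam2 and Jam3) lie at contacts between cells. NCAM1, ALCAM and MCAM are also made by stromal, neural and epithelial cells. In the gonad, vessels, macrophages, stroma and the cells around the oocytes all carry members of the family.

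Among the members, Vcam1 stood far from the rest in the ratio of mutant to control signal. The term measured is used for a probe set with at least 1 of its signals at or above 80.7, the median of all values on both arrays, and 18 of the 28 met it. They covered all 10 genes. Of the 18, 13 were higher (72.2%, beside 45.7% of all measured probe sets) and 5 lower in the mutant pool by the log2 ratio, which was taken after adding a pseudocount of 22.2 to both signals and so understates differences of dim probe sets. At 1.5-fold or more on that scale, 3 member probe sets were higher, both of Vcam1 and that of Pecam1, and 1 was lower, that of Icam2. The members' 16.7% higher and 5.56% lower stand beside 8.81% and 9.87% of all 20576 measured probe sets with a single symbol. The 3 higher probe sets were under 80.7 in the control pool and counted as measured only through their mutant signal. Where both signals had to reach 80.7, 0 of 14 member probe sets were higher, beside 6.69% of all. At 2-fold or more, 2 were higher and 0 lower, beside 2.89% and 2.04% of all. The median log2 ratio was 0.23 over the members and -0.044 over all. The members were chosen with ratios from these arrays known, so these shares are a description.

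**Figure D1:**
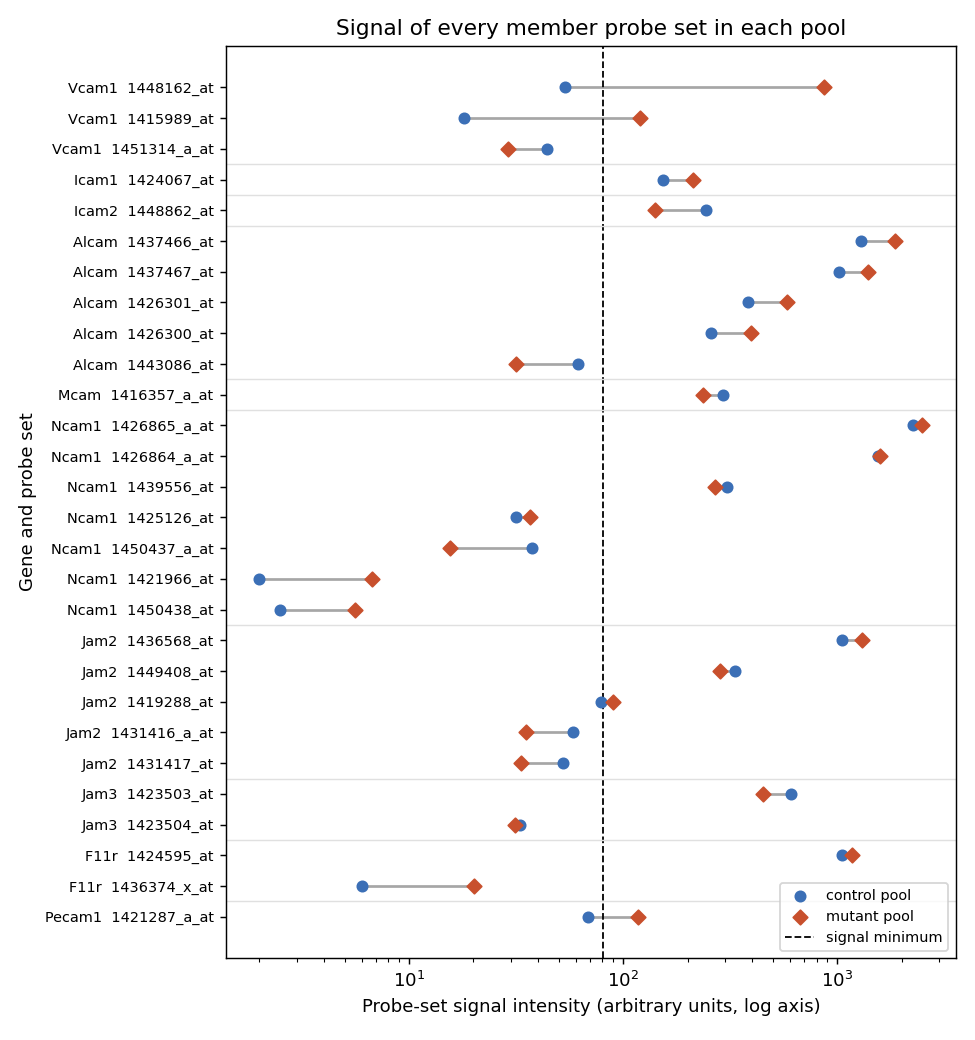
Signal intensity of all 28 member probe sets (log axis) in the control pool (circles) and the mutant pool (diamonds), with the signal minimum of 80.7 as a dashed line. The longest line that reaches above the minimum is that of Vcam1 1448162_at, from 53.7 to 872, while most lines of the other genes that lie right of the minimum are short.

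The spread these arrays do hold is the disagreement among probe sets for 1 gene. Its SD on the log2 ratio was 0.39 over 13386 probe sets of 5118 genes, 0.47 in the dimmest 25% by signal and 0.32 in the brightest 25%. Transcript variants of a gene can add to it. Of the 18 measured member probe sets, 8 were higher and 2 lower by more than this SD, where 16.3% and 19.7% of all measured probe sets were. The 8 were those of Vcam1, Alcam, Icam1 and Pecam1, and the 2 were those of Icam2 and Jam3. The spread between animals, litters or hybridisations was not measured.

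The dimmest measured member probe set was 1419288_at of Jam2, at 79.1 in control ovaries and 89.8 in mutant ovaries. The brightest that was not measured was 1443086_at of Alcam, at 61.4 and 31.5. The 10 probe sets under the minimum belonged to 6 genes (Vcam1, Alcam, Ncam1, Jam2, Jam3 and F11r) and read between 2.0 and 61.4.

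Promoter sequence was matched for 4 of the 10 genes, Alcam, F11r, Icam1 and Mcam, in a RefSeq-derived table of build GRCm38.p6. The 250 bases before the annotated start are shown for 3 of them, 5′ to 3′ on the gene's strand. Icam1 (chr9:21015690-21015939, plus strand) and Alcam (chr16:52453082-52453331, minus strand) were members with higher signal in the mutant pool, and Mcam (chr9:44134408-44134657, plus strand) was one with lower signal. Capitals mark matches, on either strand, to 4 motifs: GGAAATTCC and GGGNTTTCC, which NF-kB factors bind, GACCACCCA, the site of the hedgehog effectors GLI1 to GLI3, and GGGCGG, the GC box.
Icam1: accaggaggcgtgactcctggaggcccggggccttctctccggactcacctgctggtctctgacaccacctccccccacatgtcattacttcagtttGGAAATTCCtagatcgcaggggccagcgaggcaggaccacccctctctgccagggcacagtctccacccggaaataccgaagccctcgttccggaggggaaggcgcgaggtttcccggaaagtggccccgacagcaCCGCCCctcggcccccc
Alcam: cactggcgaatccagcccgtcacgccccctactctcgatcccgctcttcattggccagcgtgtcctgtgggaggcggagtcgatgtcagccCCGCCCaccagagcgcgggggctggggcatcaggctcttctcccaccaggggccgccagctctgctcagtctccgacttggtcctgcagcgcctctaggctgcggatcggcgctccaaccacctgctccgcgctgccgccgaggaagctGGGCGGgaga
Mcam: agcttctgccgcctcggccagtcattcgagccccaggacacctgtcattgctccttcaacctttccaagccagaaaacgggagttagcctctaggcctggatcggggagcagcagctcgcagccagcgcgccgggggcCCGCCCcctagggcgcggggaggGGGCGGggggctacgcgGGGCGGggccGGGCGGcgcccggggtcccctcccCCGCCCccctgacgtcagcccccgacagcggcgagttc
The Icam1 window held GGAAATTCC at bases 98 to 106, a match found in 0.286% of all 32851 promoter windows of this length. Every one of the 4 windows held GGGCGG, as did 32.7% of all windows, with 5 matches in Mcam, 2 in Alcam and 1 each in Icam1 and F11r. GGGNTTTCC (1.46% of all windows) and GACCACCCA (0.225%) had no match in the 4. The motifs do not overlap one another in these windows, and a match is a stretch of letters, not a measured site.

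Of the endothelial and leukocyte-binding members, Vcam1 (Entrez gene 22329) encodes the ligand of integrin alpha4 beta1. Its probe set 1448162_at had a signal of 53.7 in control ovaries and 872 in mutant ovaries, at least 10.8-fold higher, counting the dim signal at the minimum. Probe set 1415989_at read 18.1 in control ovaries and 119.8 in mutant ovaries, at least 1.49-fold higher. The log2 ratios were 3.56 and 1.82. Both measured probe sets were under the minimum in the control and above it in the mutant pool, so Vcam1 was measured only in the mutant pool. The third, 1451314_a_at, stayed under it in both, at 44.1 and 29.0. Of the 18 measured member probe sets, those 2 were the members outside the range from the 5th to the 95th percentile of all measured probe sets, -0.77 to 0.78.

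Icam1 (15894), a ligand of the beta2 integrins of leukocytes, was 153.9 in control ovaries and 213 in mutant ovaries on its single probe set, with a log2 ratio of 0.42 that did not reach 1.5-fold. Icam2 (15896), a ligand of the same integrins that resting endothelium and platelets carry, was 243 in control ovaries and 140.6 in mutant ovaries. That is 1.73-fold lower in the mutant (log2 ratio -0.70). Icam1 and Icam2 thus differed in opposite directions, each on 1 probe set only. Pecam1 (18613), the platelet and endothelial molecule of cell borders, was 68.8 in control ovaries and 116.7 in mutant ovaries, at least 1.45-fold higher. It was counted at 1.5-fold by its log2 ratio of 0.61, which lies just inside that threshold. Mcam (84004), found on endothelial and smooth muscle cells, was 291 in control ovaries and 236 in mutant ovaries, a log2 ratio of -0.28.

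Alcam (11658), which binds itself and CD6 and is made by stromal and epithelial cells, was higher in the mutant pool on all 4 of its measured probe sets. Probe set 1437466_at read 1289 in control ovaries and 1867 in mutant ovaries. Probe set 1437467_at read 1022 and 1397. Probe sets 1426301_at and 1426300_at read 384 and 257 in the control against 582 and 396 in the mutant pool. The log2 ratios lay within 0.14 of one another, at 0.53, 0.44, 0.57 and 0.58. None reached 1.5-fold with the pseudocount, although the plain signal ratios of 1426301_at and 1426300_at were 1.51 and 1.54. Of 752 genes with at least 4 measured probe sets, 75 (9.97%) had all of them above 0.

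Ncam1 (17967), the neural cell adhesion molecule, binds itself on a neighbouring cell and can carry long chains of sialic acid. It gave log2 ratios near 0 on its 3 measured probe sets of 7. Probe set 1426865_a_at was 2268 in control ovaries and 2497 in mutant ovaries (0.14), and 1426864_a_at was 1550 and 1584 (0.031). Probe set 1439556_at was lower in the mutant pool, with signals of 306 and 269 in control and mutant (-0.17). Each lay inside the probe-set SD. The remaining 4 probe sets, 1425126_at, 1450437_a_at, 1421966_at and 1450438_at, read between 2.0 and 37.7.

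The JAMs did not differ in a common direction. F11r (16456), the gene of JAM-A, was 1047 in control ovaries and 1176 in mutant ovaries, a log2 ratio of 0.17. Jam2 (67374), whose product pairs with that of Jam3, was 1058 in control ovaries and 1303 in mutant ovaries on 1436568_at (0.30). Its probe set 1449408_at was 334 in control ovaries and 282 in mutant ovaries (-0.23), so the measured probe sets of Jam2 went both ways. Jam3 (83964) was 609 in control ovaries and 449 in mutant ovaries on its single measured probe set, 1.35-fold lower (-0.42). All the measured ratios of F11r and Jam2 were inside the probe-set SD, and that of Jam3 lay just outside it. Under the minimum in both pools were 1436374_x_at of F11r (6.0 and 20.2), 1431416_a_at and 1431417_at of Jam2 (58.2 and 52.1 in the control, 35.3 and 33.4 in the mutant) and 1423504_at of Jam3 (32.9 and 31.1).

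**Figure D2:**
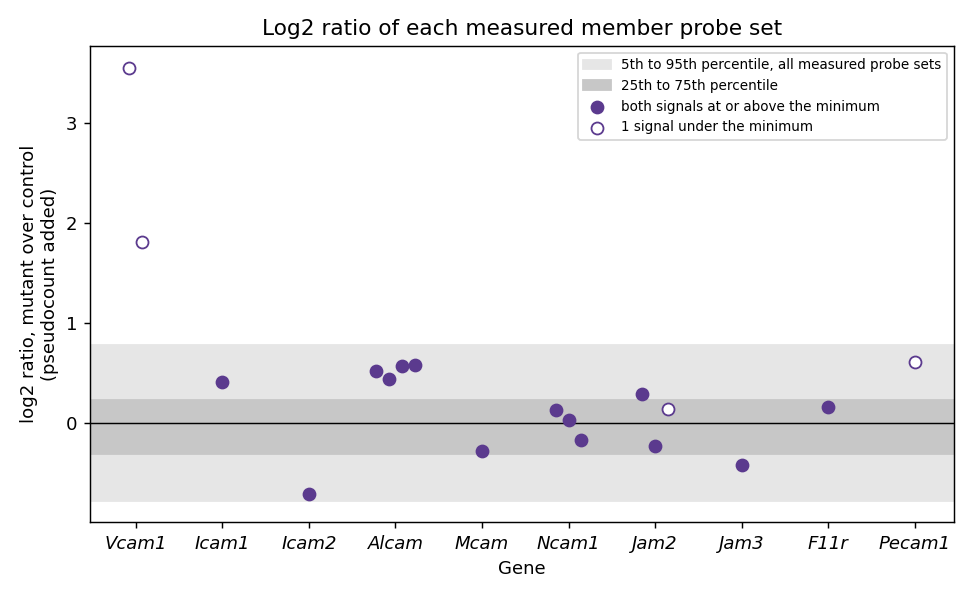
Log2 ratio of mutant to control signal for the 18 measured member probe sets, grouped by gene. Filled points have both signals at or above the minimum and open points have 1 signal under it. Grey bands span the 5th to 95th (-0.77 to 0.78) and 25th to 75th percentile (-0.31 to 0.24) of all measured probe sets, and the 2 Vcam1 points at 3.56 and 1.82 lie above both.

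The ratios depend on how the arrays are put on a common scale. Spiked hybridization controls, which are normally added in equal amount, had a median log2 ratio of 0.23 over 18 probe sets. Dividing the mutant signals by the controls' ratio moved the median of all measured genes from -0.023 to -0.25. Of 12108 genes measured on that scale, 4.85% were at least 1.5-fold higher and 18.0% that much lower. The members' median then became 0.070 over 17 probe sets, and Ncam1 and F11r turned to -0.09 and -0.061 on their brightest probe sets. The signs of Vcam1, Icam1, Icam2, Alcam, Mcam, Jam2, Jam3 and Pecam1 were kept, but the Pecam1 log2 ratio was 0.42. The 3′ probe set over the 5′ probe set of beta-actin, a sign of RNA length, was 8.48 for the control array and 10.5 for the mutant array, and that of Gapdh was 3.28 and 4.98. The part of this difference in the members' ratios was not tested.

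Partners of the family were counted by gene, on whichever measured probe set of a gene was brightest on average. Of all 12308 measured genes, 9.32% passed 1.5-fold upward in the mutant and 7.90% downward. Of 17 proteins that bind members or link them to actin, 13 were measured, 4 at least 1.5-fold higher and 0 lower, with a median of 0.30. That median was -0.033 with the hybridization control scaling, where 1 was higher. Itga4, the alpha4 chain of the main VCAM1 receptor, was 332 in control ovaries and 648 in mutant ovaries, 1.95-fold higher. Its beta chain Itgb1 was 1145 and 1213 (log2 ratio 0.081). Itgb3 was 111.1 in control ovaries and 206 in mutant ovaries, 1.86-fold higher. Itgb2, the beta chain shared by the leukocyte receptors of the ICAMs, was 59.1 and 100.7, at least 1.25-fold higher. Itgb7, the other partner of alpha4, was 3.3 in control ovaries and 80.9 in mutant ovaries, which only just reaches the minimum. The 4 counted higher were Itga4, Itgb3, Itgb2 and Itgb7. Itgb2 and Itgb7 were under the minimum in control ovaries, and their bounds were less than 1.5-fold. Cd6, the leukocyte receptor of ALCAM, was under the minimum in both pools.

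Inflammatory cues and genes that are induced together with Vcam1 and Icam1 held no gene at 1.5-fold or more higher on its brightest probe set. Of 12 listed, 6 were measured and 1 was at least 1.5-fold lower, with a median log2 ratio of -0.004 (2 lower and -0.22 with the hybridization control scaling). The one lower was Cxcl10, an interferon-induced chemokine, at 166 in control ovaries and 89.5 in mutant ovaries. Sele, Selp, Ccl2, Tnf and Il1b were under the minimum in both pools. Tnfaip3 and Nfkbia, feedback inhibitors of NF-kB, had log2 ratios of 0.039 and 0.097, the latter on the brightest of 5 measured probe sets that ranged from -0.20 to 0.64.

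The enzymes that act on members were all measured. St8sia4 and St8sia2, which add polysialic acid to NCAM1, were 1320 and 432 in the mutant pool against 762 and 280 in the control. These are 1.73-fold and 1.54-fold higher, but a second measured probe set of St8sia2 had a log2 ratio of -0.40, and neither gene reached 1.5-fold with the hybridization control scaling. The sheddases Adam10, Adam17 and Bace1 had log2 ratios of 0.23, -0.12 and 0.24. A second measured probe set of Adam10 had -0.77, and one of Adam17 had -0.52.

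The tight-junction and polarity list around the JAMs went both ways. Of 14 listed genes 11 were measured, 2 at least 1.5-fold higher and 3 lower, with a median of -0.24. Cldn11, the claudin of Sertoli and myelin junctions, was 36.4 in control ovaries and 396 in mutant ovaries, at least 4.90-fold higher. Cldn1 was 399 and 1368, 3.43-fold higher. Cgn, the gene of the junction plaque protein cingulin, was 929 in control ovaries and 519 in mutant ovaries, 1.79-fold lower. Ocln, the gene of occludin, was 637 and 401, 1.59-fold lower. Pard3, the polarity protein that binds the JAM tails, was 2568 and 1596, 1.61-fold lower.

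Other immunoglobulin-family adhesion genes went both ways, mostly by less than 1.5-fold. Of 33 listed, 18 were measured, with 7 above 0 and 11 below it and a median of -0.12. At 1.5-fold or more, 1 was higher and 0 lower. The one higher was Madcam1, the integrin alpha4 beta7 ligand, at 32.7 in control ovaries and 84.7 in mutant ovaries, where the bound is only at least 1.05-fold. With the hybridization control scaling, 0 of 17 were higher and 5 lower (29.4%, beside 18.0% of all genes), with a median of -0.39. Esam, an endothelial relative of the JAMs, had a log2 ratio of 0.42. Cadm1, which joins epithelial and germ cells, was 3523 in control ovaries and 2598 in mutant ovaries (-0.44), and the lowest of its 3 measured probe sets had -1.05.

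Markers of the cells that carry the members also differed between the pools, and in bulk RNA fewer cells of a type and less RNA per cell cannot be told apart. Of 14 endothelial markers 13 were measured, 2 at least 1.5-fold higher and 0 lower, with a median log2 ratio of 0.30. Their summed signal was 5204 in control ovaries and 6756 in mutant ovaries. Cdh5, the endothelial cadherin, had a log2 ratio of 0.54 and Eng 0.60. Of the 13, 10 were above 0, and Tek, Egfl7 and Erg were at -0.004, -0.035 and -0.31. The endothelial and leukocyte-binding members went both ways. Vcam1 (brightest probe set), Pecam1 and Icam1 had log2 ratios of 3.56, 0.61 and 0.42, and Icam2 and Mcam had -0.70 and -0.28. Tie1 was under the minimum in both pools. Of 12 leukocyte markers 10 were measured, 4 at least 1.5-fold higher and 0 lower, with a median of 0.45 and sums of 5768 and 9245. Ptprc, the pan-leukocyte phosphatase, was 276 in control ovaries and 494.5 in mutant ovaries. Itgam and C1qa were under the minimum in both pools.

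Of 5 platelet markers 3 were measured, with log2 ratios of 0.24 for Pf4, 0.53 for Gp1bb and 1.20 for Itga2b. Their sums were 673 and 946, and Gp9 and Ppbp were under the minimum in both pools. Of 7 measured mural cell markers 3 passed 1.5-fold upward, with a median of 0.55 and sums of 12910 and 19865. Interstitial markers had 7 of 8 higher and a median of 0.83, with sums of 34856 and 57819. The 7 steroidogenic genes had 6 higher and a median of 2.34, with sums of 9917 and 53825. Vcam1 was at least 10.8-fold higher on its brightest probe set and at least 1.49-fold higher on its other measured probe set. Among measured endothelial, leukocyte, mural and interstitial genes the highest fold was 2.37, for C1qb, a complement gene of macrophages. The platelet gene Itga2b was at least 2.58-fold higher. On C1qb the lowest of 3 measured probe sets gave 0.24 (log2). Among the steroidogenic genes, Cyp17a1 was at least 93.3-fold and Cyp11a1 at least 70.6-fold higher. The other measured probe set of Cyp11a1 had a log2 ratio of 0.26. Star was 18.0-fold and Scarb1 5.18-fold higher. Hsd3b1, Fdx1 and Nr5a1 had log2 ratios of 1.996, 1.86 and 0.53, and Nr5a1 did not reach 1.5-fold. Whether Vcam1 went with the cells of any of these lists was not tested.

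Lists with lower signal in the mutant pool were pregranulosa (6 of 9 at least 1.5-fold lower, median -0.67), oocyte (6 of 10, -0.71) and surface epithelium (3 of 9, -0.41). Their summed signals were 38084, 39709 and 11460 in the control and 27693, 24559 and 7840.0 in the mutant pool. The pregranulosa count and sums include Amhr2, whose locus carries Cre in the mutant pool. Its signal was 8591 in control ovaries and 3486 in mutant ovaries (log2 ratio -1.30) on the brightest of 3 measured probe sets. Their log2 ratios ranged from -1.30 to -0.26. The part of the changed Amhr2 copy in these values was not tested. Of 7 nerve and glia markers 3 were measured, with a median of 0.039 that was -0.16 with the hybridization control scaling. With the hybridization control scaling, 1 endothelial, 0 leukocyte, 1 mural and 4 interstitial genes were still at least 1.5-fold higher, and the medians of these lists fell to 0.092, 0.17, 0.33 and 0.60. On the same scale 7 of 9 pregranulosa, 10 of 10 oocyte and 5 of 9 surface epithelium genes were at least 1.5-fold lower, with medians of -0.90, -0.94 and -0.62. The part of cell composition in the members' ratios was not tested.

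**Figure D3:**
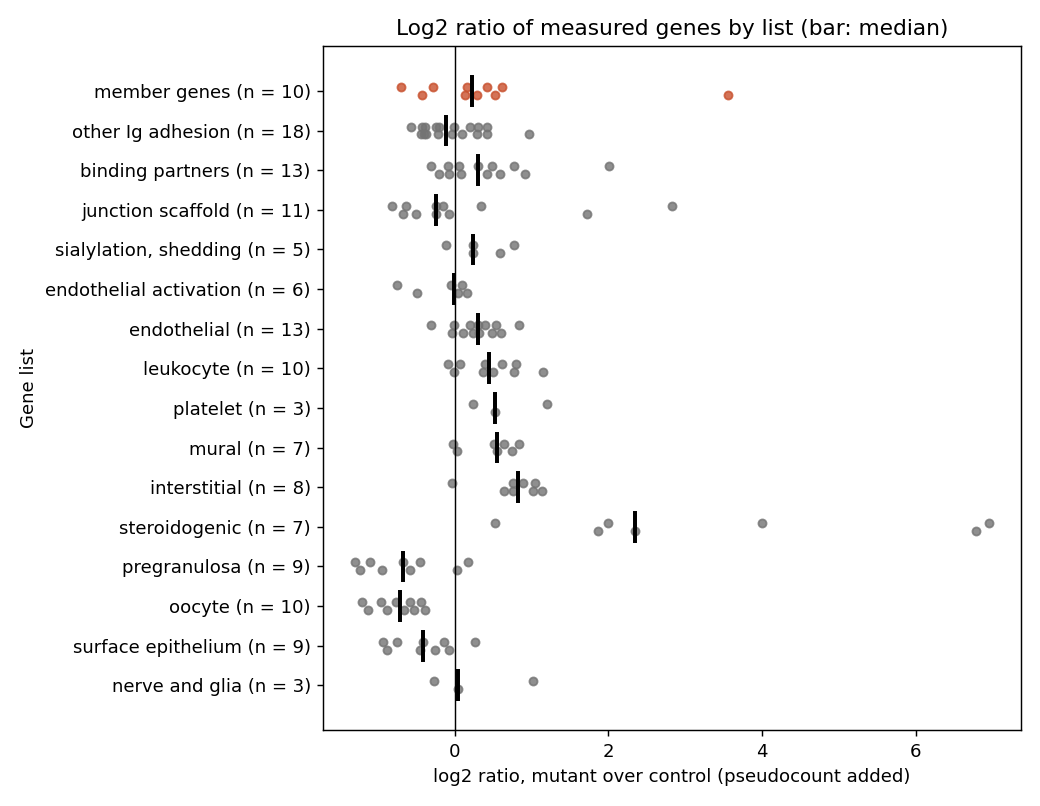
Log2 ratio of mutant to control signal for each measured gene of 16 gene lists, with a bar at each list's median; n is the number of measured genes. The member genes spread from -0.70 to 3.56 around a median of 0.23, with Vcam1 as the single point above 1.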

How the data were processed

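RNA from 2-day-old ovaries was pooled from 8 mice per genotype, labelled with biotin and hybridised to 1 array per pool, per the labels. The values are linear probe-set signal intensities as deposited by the authors, between 0.1 and 50465. GCOS is named in the submitters' processing notes, and for its settings and the scaling step nothing is given in the sources used here. Gene symbols came from the platform annotation. Signals were used without further correction. A probe set was measured if its higher signal reached 80.7 (median of all values). The log2 ratio used a pseudocount of 22.2 (25th percentile), and where 1 signal was under 80.7 the fold is the brighter signal over 80.7. Counts at 1.5-fold use the log2 ratio. All members are named. In the other 15 lists the rule counts every gene and allows any at 1.5-fold or more to be named; only some are, and these and the listed genes under 1.5-fold were picked after their values were seen. Members and lists were chosen with earlier results of these data known. The number of arrays limits the precision. 11 alternative settings were run in Python 3.11.15, and the ratio code was tested on simulated data.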

Additional observations from a re-analysis of the deposited data

How the results depend on the processing

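In the main setting, 3 of 18 member probe sets were at least 1.5-fold higher. That count was 5 without a pseudocount, with quantile normalization and with the mutant signals divided by the median ratio. Of all probe sets, 10.2%, 9.43% and 10.1% were that much higher in these settings. The count was 1 of 9 with the minimum at the 75th percentile (442), beside 7.02% of all. Where both signals had to reach the minimum it was 0 of 14, beside 6.69% of all. The count at least 1.5-fold lower (1 of 18) was 0 with the pseudocount at the median and with the minimum at the 75th percentile, 3 of 28 without a minimum (where 12% of all probe sets were lower), and 2 of 17 with the hybridization control scaling (20.8% of all). The members' median log2 ratio ranged from 0.070 to 0.36 over the 11 alternatives, and the median of all from -0.27 to 0.002. Both lowest values came with the hybridization control scaling. Vcam1 had log2 ratios from 2.69 to 4.02 in the 10 alternatives that gave a value, and could not be given where both signals had to reach the minimum. Icam2 stayed at 1.5-fold or more lower in 9 of 10 alternatives and Pecam1 higher by as much in 5 of 8. Ncam1 kept its sign in 8 of 11. No paired analysis was possible because each group holds 1 array. Signals under 80.7 limit what can be said of Vcam1 and Pecam1 in the control pool.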
